A study of Mus musculus with 6 samples.

Results

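The common gamma chain cytokines and receptors measured here were 8 genes, chosen by name from the 55291 gene symbols of the count table: the receptor chains Il2rg, Il2rb, Il7r, Il21r, Il4ra and Il15ra and the ligands Il7 and Il15. All 8 were present in the table, and all 8 were among the 18621 genes that passed the filter on low counts. Bulk RNA-seq was done on tumours of the mouse glioma line CT2A grown under the skin, with 3 libraries of genotype Siglece KO (knockout) and 3 of genotype WT (wild type). Per the labels' protocols 5000 to 20000 CT2A cells were sampled per library, and the labels name no sort. Siglec-E, the Siglece product, is an inhibitory receptor of mouse myeloid cells that binds sialic acid, and the series title names the human receptor Siglec-9, T cell priming and macrophages of glioblastoma as the subject. Both groups carried the same tumour line, the labels give no treatment, age or mouse strain, and they do not state how the KO allele was made or whether it is confined to any cell type. The source entry reads brain and the tissue entry a tumour under the skin; the tissue entry was followed. Nothing in the labels ties each library to its own animal, so p-values measure only the spread between libraries, which may be technical.

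The cytokines IL-2, IL-4, IL-7, IL-9, IL-15 and IL-21 signal through receptors that share the common gamma chain, the product of Il2rg. Each cytokine adds its own chain: the IL-2 receptor beta chain (Il2rb) serves IL-2 and IL-15, and Il7r, Il21r and Il4ra serve IL-7, IL-21 and IL-4. The kinases JAK1 and JAK3 bind these chains and activate STAT proteins, mainly STAT5, STAT3 or STAT6 according to the cytokine. T cells and NK cells depend on IL-7 and IL-15 for survival. IL-15 is held on the surface of producing cells by its alpha chain (Il15ra) and shown from there to neighbouring lymphocytes, while IL-7 is made mainly by stromal and epithelial cells. Il4ra is also carried by macrophages and by many non-immune cells, where it serves IL-4 and IL-13.

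Library totals ran from 24369359 to 40574093 counts. The values of a group are listed below in the order replicate 1, 2, 3. Siglece itself had 0, 8 and 0 counts in the KO libraries and 74, 99 and 64 in the WT libraries. The KO libraries stood apart from each other. Pairs of libraries were compared over all tested genes by a chi-square per degree of freedom, lower meaning more alike. KO replicate 2 had 312, 105 and 110 against WT replicates 1, 2 and 3. Against KO replicates 1 and 3 it had 340 and 456. The summed level of 8 neural and glioma markers was 69.5, 575 and 48.9 scaled counts (CPM, defined with Il2rg below) in the KO libraries and 806 to 855 CPM in the WT libraries. Of these markers 2 were lower in KO and 6 did not pass the test. Thus KO replicates 1 and 3 held 0.0836 and 0.0588 times the WT mean of the markers of the labelled cell type, and KO replicate 2 held 0.691 times. In the bulk samples analysed here, more cells of a type and more RNA per cell cannot be told apart.

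The 5 signalling receptor chains rose in KO tumours, whereas both ligands and Il15ra did not pass the test. Il2rg, Il2rb, Il7r, Il21r and Il4ra were higher, and 0 of the 8 genes were lower, at an adjusted p of 0.05 (edgeR quasi-likelihood test, Benjamini-Hochberg adjustment over all genes tested). The background was 11.2% of all tested genes called higher and 0.226% called lower. The same 5 genes had KO libraries all above the WT libraries, as did 24.6% of all tested genes, and 0 of the 8 had all KO libraries below, as did 19.5%. The median log2 fold change was 2.08 over the 8 genes and -0.05 over all tested genes. The adjusted p was 0.0246 for each of the 5 chains, which was also the smallest value of any gene in this fit.

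Il2rg, the shared chain of the family, had the highest level per exon length of the 8 genes in each of the 6 libraries. It was at 302, 110 and 186 CPM in the KO libraries, where CPM are counts scaled to library size after TMM scaling, a correction for differences in composition. It was at 39.8, 37.5 and 30.1 CPM in the WT libraries. The lowest KO library lay well above the highest WT library, and KO replicate 1 was the highest of all. Mean levels were 199 ± 97.0 CPM for KO and 35.8 ± 5.12 CPM for WT (SD, n = 3), and the log2 fold change was 2.48 (standard error, SE, 0.41; 95% interval 1.53 to 3.42; adjusted p = 0.0246, edgeR). Il2rg (ENSMUSG00000031304.18) maps to chromosome X, 101264378 to 101268255 (mm10, minus strand). The predicted gene Gm20489 shares 728 bases, 30.5% of the 2387 merged exon bases of Il2rg, on the same strand. Reads from the shared stretch could not be assigned by position alone. Gm20489 had 2541, 1203 and 1038 counts in the KO libraries and 286, 344 and 299 in the WT libraries, fewer than Il2rg in each library.

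**Figure D1:**
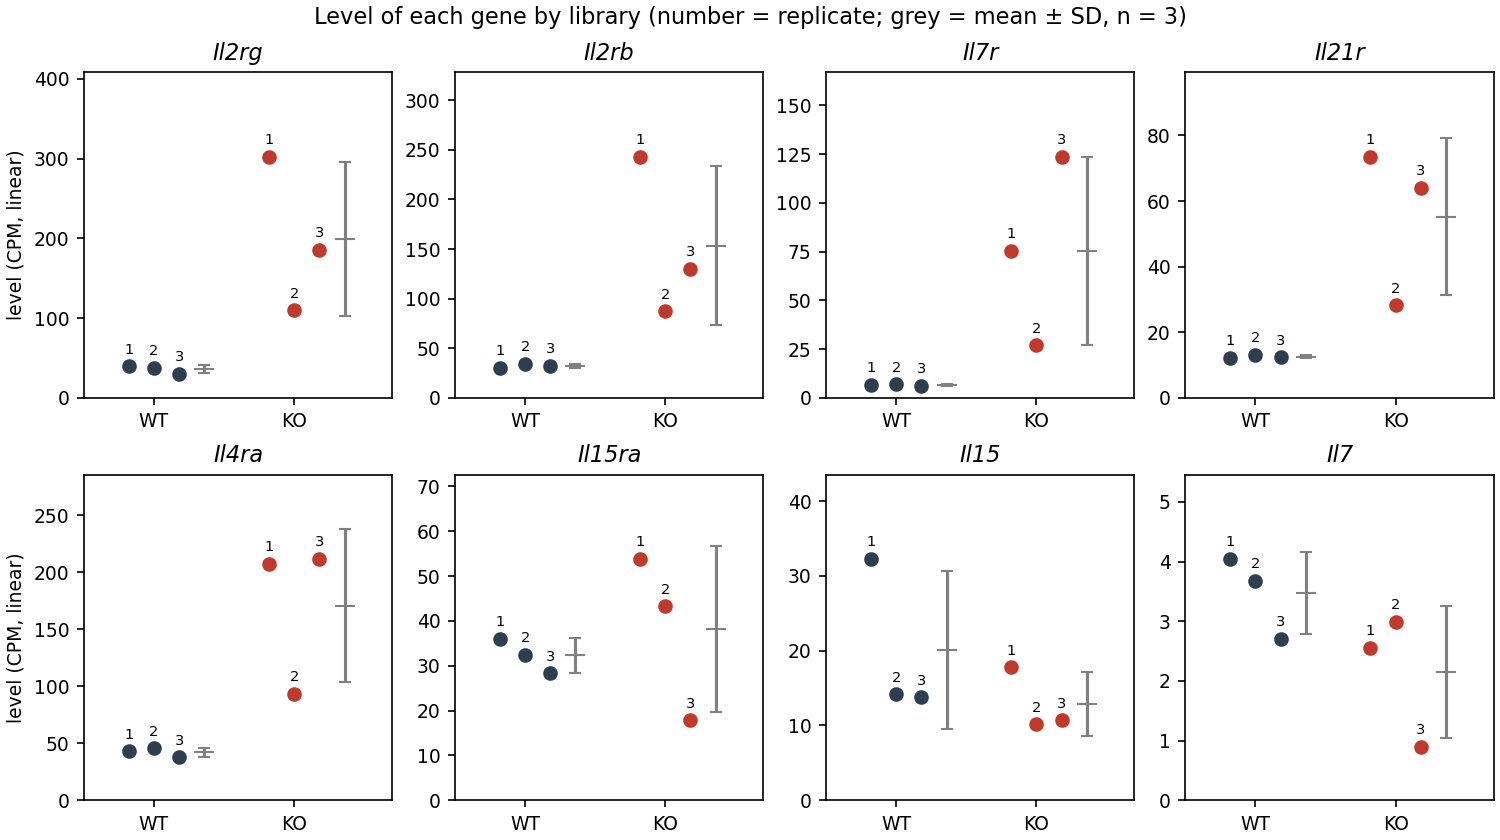
Each panel gives the level of 1 gene in CPM on a linear axis from 0, for the WT libraries (dark) and the KO libraries (red). Numbers are replicates, and grey bars are the mean ± SD of 3 libraries. The KO points of Il2rg, Il2rb, Il7r, Il21r and Il4ra lie above the WT points without overlap, and those of Il15ra, Il15 and Il7 overlap them.

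Il2rb, the chain that joins Il2rg in the IL-2 and IL-15 receptors of T and NK cells, was at 243, 87.4 and 130 CPM in the KO libraries. Its WT levels were 30.2, 34.5 and 32.6 CPM. The WT libraries were close together, with a coefficient of variation of 6.70%, and the KO libraries were spread, with one of 52.4%. The fitted log2 difference was 2.24 (SE 0.40, 95% interval 1.32 to 3.17, adjusted p = 0.0246, edgeR). Il2rb (ENSMUSG00000068227.9, chromosome 15, 78479256 to 78495271, minus strand, mm10) shares no exon bases with another gene of the table.

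Il7r, the IL-7 receptor alpha chain of naive and memory T cells and innate lymphoid cells, had the greatest fold change of the 8 genes. It was at 75.6, 27.0 and 124 CPM in the KO libraries and at 6.86, 7.07 and 6.19 CPM in the WT libraries. Unlike Il2rg and Il2rb, it was highest in KO replicate 3. The KO libraries were 11.3, 4.02 and 18.5 times the WT mean, and the log2 fold change was 3.49 (SE 0.54, 95% interval 2.24 to 4.74). Without KO replicate 3 the log2 fold change was 2.91 (adjusted p = 0.0454, edgeR). Il7r (ENSMUSG00000003882.5) maps to chromosome 15, 9505788 to 9530176 (mm10, minus strand).

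Il21r, the receptor chain for the helper T cell cytokine IL-21 on B, T and NK cells, was at 73.5, 28.2 and 64.1 CPM in the KO libraries. It was at 12.2, 13.2 and 12.3 CPM in the WT libraries. The WT spread was the narrowest of the 8 genes, with a coefficient of variation of 4.13%. The fitted log2 difference was 2.14 (SE 0.38, 95% interval 1.25 to 3.02, adjusted p = 0.0246, edgeR).

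Il4ra, the IL-4 and IL-13 receptor chain, was at 207, 93.3 and 212 CPM in the KO libraries and at 43.1, 45.5 and 37.6 CPM in the WT libraries. KO replicates 1 and 3 were alike and KO replicate 2 lay between them and the WT libraries. Its log2 fold change of 2.02 (SE 0.37, adjusted p = 0.0246, edgeR) was the smallest of the 5 called chains. Il4ra (125552120 to 125579474) and Il21r (125603429 to 125633570) are neighbours on the plus strand of chromosome 7 (mm10). The antisense predicted gene Gm44876 overlaps 571 bases of the Il4ra exons, 9.51%, and had at most 49 counts in a library, against 1265 or more for Il4ra.

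The 5 calls were lost in 4 of the 6 fits that left out 1 library. Without KO replicate 1, or without any 1 of the WT libraries, edgeR called 0 of the 8 genes and 0 of all genes, with the 5 chains sharing an adjusted p of 0.0934 without KO replicate 1 and of 0.118, 0.106 and 0.113 without WT replicate 1, 2 and 3. In these fits all 5 chains kept an unadjusted p under 0.05, as did 3461, 4931, 4282 and 4246 genes in all, and DESeq2 called the same 5 chains higher in each of the 6 fits without 1 library. The share of all tested genes called higher in those DESeq2 fits was 10.7%, 24.0% and 13.4% without KO replicate 1, 2 and 3 and 14.6%, 12.9% and 12.2% without WT replicate 1, 2 and 3. The share called lower was 0.462%, 23.7%, 1.75%, 1.44%, 1.45% and 1.13% in the same order. With edgeR the calls held without KO replicate 2, where 22.7% of genes were higher and 18.5% lower, and without KO replicate 3, where 4.85% were higher and 0.0309% lower.

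With all 6 libraries, 8 other settings also called these 5 chains and no other gene of the family. The shares of genes called higher were 9.66% with RLE scaling, 9.19% with no composition scaling, 8.71% with no filter on low counts, 13.3% with a stricter filter, 17.9% for DESeq2, 5.31% for limma-voom, 29.7% when quality weights were added to it, and 10.8% for the robust edgeR fit. The shares called lower were 0.306%, 0.129%, 1.44%, 0.258%, 6.83%, 0.166%, 25.5% and 0.199% in that order.

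Sequence upstream of the RefSeq start is shown for the 3 called chains and Il15ra whose RefSeq promoter window (GRCm38.p6, mm10 assembly) met a rule. The window had to hold a stretch next to or within 3 bases of that start and outside the exons of the gene in GENCODE M21. The Il7r stretch lies inside the GENCODE span of that gene (9505788 to 9530176). Il15ra is included because it did not pass the test. It has a further window, whose non-exonic stretch (chr2:11705579-11705711) also meets this rule; it held none of the motifs searched and is not printed. Of the 8 genes 5 matched that table, with 6 windows; Il2rb, Il7 and Il15 did not. Letters run from 5′ to 3′ on the strand of the gene, and capitals mark a match to one of 6 motifs searched on both strands. The STAT motif was TTCNNNGAA, and the STAT6 motif had 1 more free base in its middle. The RUNX, ETS, IRF and TATA box motifs are spelled out with their results. The regions are chrX:101268256-101268505 on the minus strand for Il2rg, chr15:9529877-9530040 on the minus strand for Il7r, chr7:125603179-125603428 on the plus strand for Il21r and chr2:11705043-11705289 on the plus strand for Il15ra.
Il2rg: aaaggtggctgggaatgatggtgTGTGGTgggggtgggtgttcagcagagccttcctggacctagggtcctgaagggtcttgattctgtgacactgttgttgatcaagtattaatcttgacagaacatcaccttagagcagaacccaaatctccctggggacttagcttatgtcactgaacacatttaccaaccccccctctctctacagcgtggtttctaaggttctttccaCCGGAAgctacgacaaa
Il7r: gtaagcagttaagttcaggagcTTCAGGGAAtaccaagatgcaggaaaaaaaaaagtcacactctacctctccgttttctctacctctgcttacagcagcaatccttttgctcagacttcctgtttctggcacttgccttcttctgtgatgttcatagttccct
Il21r: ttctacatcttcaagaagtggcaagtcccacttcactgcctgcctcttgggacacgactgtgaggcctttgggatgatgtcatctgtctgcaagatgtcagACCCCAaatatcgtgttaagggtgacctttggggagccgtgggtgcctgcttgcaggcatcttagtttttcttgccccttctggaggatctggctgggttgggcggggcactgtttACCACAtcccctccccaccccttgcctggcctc
Il15ra: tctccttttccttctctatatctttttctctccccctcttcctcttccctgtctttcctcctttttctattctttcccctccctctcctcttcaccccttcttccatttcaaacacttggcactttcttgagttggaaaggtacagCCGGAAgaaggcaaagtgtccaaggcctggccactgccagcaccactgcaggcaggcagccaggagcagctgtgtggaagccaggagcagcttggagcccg

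The RUNX motif was searched as TGNGGT. The shared chain had a match to it starting at position -227, counted back from the RefSeq start. The ETS motif was searched as CCGGAA, and the shared chain had a match at -17. Il7r had the only match to the STAT motif among the 6 windows, at -142, inside the GENCODE span of the gene. A stretch shortly after this RefSeq start was found in no GENCODE M21 transcript of Il7r, unlike for the other windows. Il21r had RUNX-type matches at -149 and -33. The Il15ra stretch had an ETS-type match at -104. The Il4ra window is not shown because its longest stretch outside the GENCODE exons ends 151 bases before the start. It had a RUNX-type match at -150, inside the GENCODE span of the gene, which begins at 125552120. None of the 6 windows held the STAT6 motif, the IRF motif (GAAA, any 2 bases, then the same 4 letters again) or the TATA box. The last was searched as TATAAA. Of all 32851 windows of 250 bases in the table, 7.02% held the STAT motif, 40.1% the RUNX motif and 12.0% the ETS motif. The STAT6, IRF and TATA letters stood in 5.85%, 2.98% and 12.4% of them. These matches describe letters only and are not binding sites.

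Il15ra, the chain that presents IL-15, did not separate the groups. It was at 53.8, 43.3 and 17.8 CPM in the KO libraries and at 36.0, 32.5 and 28.3 CPM in the WT libraries. KO replicates 1 and 2 lay above the WT libraries and KO replicate 3 below them. The log2 fold change was 0.25 (SE 0.40, 95% interval -0.68 to 1.18, adjusted p = 0.682, edgeR). Without KO replicate 1 it was -0.12 and without KO replicate 3 it was 0.56, and neither fit called it (adjusted p = 0.885 and 0.259, edgeR). Il15ra (ENSMUSG00000023206.16) maps to chromosome 2, 11705290 to 11734317 (mm10, plus strand).

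Il15, the ligand, was at 17.8, 10.1 and 10.7 CPM in the KO libraries and at 32.3, 14.2 and 13.8 CPM in the WT libraries. WT replicate 1 was the highest library, and KO replicate 1 lay above the other WT libraries, so the groups overlapped. The log2 fold change was -0.64 (SE 0.44, 95% interval -1.65 to 0.37, adjusted p = 0.322, edgeR). It was -0.14 without WT replicate 1 (adjusted p = 0.802, edgeR). Il15 (ENSMUSG00000031712.10) maps to chromosome 8, 82331632 to 82403222 (mm10, minus strand).

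Il7, the ligand of Il7r, was the least abundant of the 8 genes per exon length in each library. Its KO libraries held 75, 105 and 18 counts, or 2.55, 2.99 and 0.897 CPM. Its WT libraries held 148, 129 and 91 counts, or 4.04, 3.68 and 2.71 CPM. KO replicate 3 was the lowest library, and KO replicate 2 lay above WT replicate 3, so that the groups overlapped. The log2 fold change was -0.69 (SE 0.55, 95% interval -1.95 to 0.58, adjusted p = 0.395, edgeR), and it was -0.35 without KO replicate 3. The antisense predicted gene Gm16685, which shares 105 bases of the Il7 exons, had 52 counts in KO replicate 3, more than Il7, and fewer than Il7 in the other 5 libraries. Il7 (ENSMUSG00000040329.14) maps to chromosome 3, 7569994 to 7613760 (mm10, minus strand).

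Levels of different genes were compared as CPM per kilobase of merged exons (RPKM). In WT tumours the order of mean levels was Il2rg (15 ± 2.14 RPKM, SD, n = 3), Il15 (8.88 ± 4.67), Il2rb (7.57 ± 0.507), Il15ra (7.26 ± 0.871), Il4ra (7.01 ± 0.670), Il21r (3.78 ± 0.156), Il7r (1.44 ± 0.0981) and Il7 (0.614 ± 0.122). The 4 genes from Il15 to Il4ra were within their spread and changed order between libraries, and the range of Il15 also reached into that of Il2rg. In KO tumours the order was Il2rg (83.5 ± 40.6 RPKM), Il2rb (35.8 ± 18.8), Il4ra (28.4 ± 11.2), Il21r (16.6 ± 7.19), Il7r (16.2 ± 10.4), Il15ra (8.61 ± 4.16), Il15 (5.69 ± 1.88) and Il7 (0.379 ± 0.195). The ranges of all neighbours in this order overlapped except those of Il15 and Il7, although Il2rg led in each library. Il15, with rank 2 in WT replicate 1, had rank 6 or 7 in the KO libraries.

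**Figure D2:**
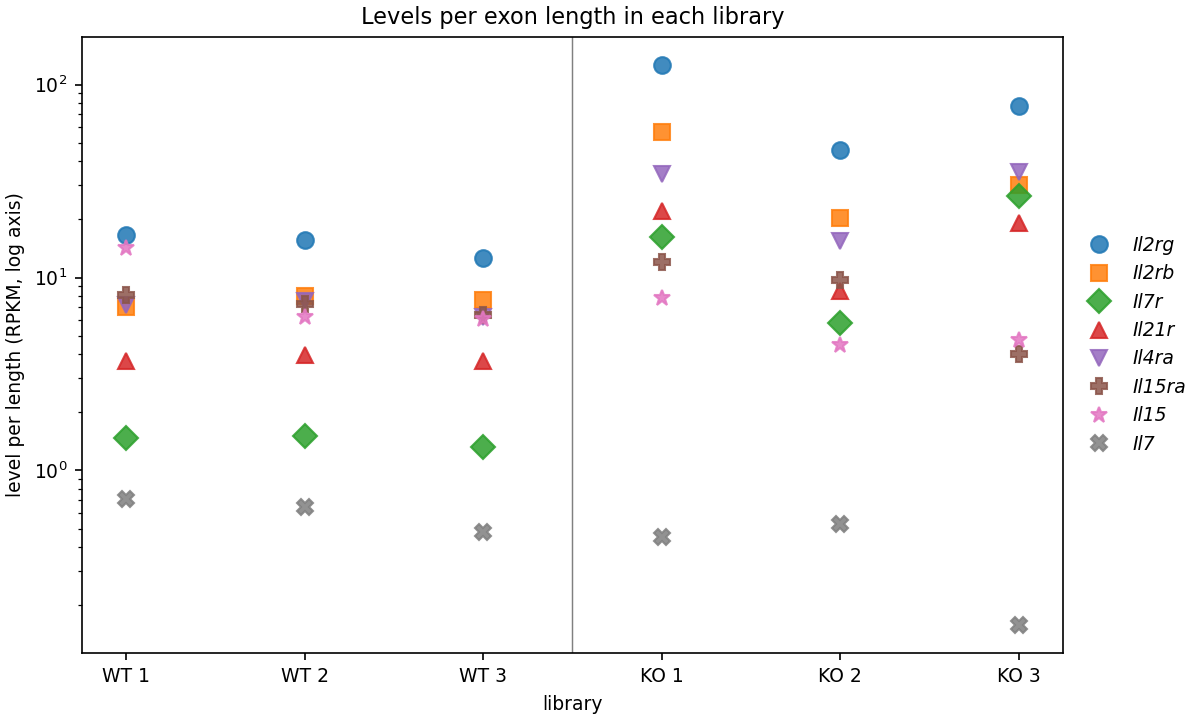
Level per exon length (RPKM, log axis) of the 8 genes in each library, WT on the left and KO on the right. Il2rg is the top point and Il7 the bottom point in each library, and Il7r has rank 7 of 8 in the WT libraries and ranks 4 to 6 in the KO libraries.

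Per exon length, Il2rb, Il7r, Il21r and Il4ra were each present at a fraction of the shared chain. Il2rb stood at 44.7%, 44.3% and 39.0% of the Il2rg level in the KO libraries and at 42.2%, 51.2% and 60.5% in the WT libraries. Il7r stood at 12.8%, 12.6% and 34.1% in the KO libraries and at 8.81%, 9.63% and 10.5% in the WT libraries. Il21r stood at 17.5%, 18.4% and 24.8% in KO and at 22.0%, 25.2% and 29.4% in WT. Il4ra stood at 27.3%, 33.8% and 45.3% in KO and at 43.0%, 48.2% and 49.8% in WT. The KO libraries were thus above the WT libraries for Il7r, with KO replicate 3 far from the rest. The log2 ratio of Il7r to Il2rg differed in the mean by 0.86, and by 0.39 without KO replicate 3. Its exact permutation p was 0.1, the smallest possible, and 0.233 after adjustment (test described in the next paragraph). The share of all tested genes that separate the groups relative to Il2rg was not counted. For Il2rb, Il21r and Il4ra the groups overlapped.

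Ratios of genes within a library do not depend on library scaling and the KO and WT means of each log2 ratio were compared by an exact permutation test, two-sided. With 3 against 3 libraries its smallest p is 0.1, so none of the 14 ratios tested could pass the threshold. The log2 ratio of Il7r to its ligand Il7 was 4.85, 3.15 and 7.01 in the KO libraries and 0.75, 0.93 and 1.17 in the WT libraries. The groups did not overlap, and the difference in means was 4.05 (exact permutation p = 0.1, Benjamini-Hochberg adjusted over the 14 ratios 0.233). Il7r alone already separated the groups in CPM, with KO higher, as did 24.6% of all tested genes. The ratio of Il15ra to Il15 overlapped between groups, with a difference of 0.68 (exact permutation p = 0.3, adjusted 0.42).

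Set against Ptprc (CD45), the pan-leukocyte surface phosphatase, 4 of the 5 called receptor chains no longer separated the groups. Ptprc itself was higher in KO (log2 fold change 2.01, SE 0.42, adjusted p = 0.0280, edgeR). The mean log2 ratio to Ptprc differed between KO and WT by 0.43 for Il2rg, 0.17 for Il2rb, 0.08 for Il21r and -0.01 for Il4ra, with overlapping groups (exact permutation p = 0.4, 0.4, 0.7 and 0.9). The sign of the Il2rg, Il2rb and Il21r differences turned with another leukocyte reference, Cd3e. The Il7r ratio to Ptprc was higher in each KO library than in any WT library, by 1.29 in the mean (exact permutation p = 0.1). Of all 18620 other tested genes, 1.97% had ratios to Ptprc that were higher in this way. This difference was 0.77 without KO replicate 3 and 0.41 with Cd3e as the reference. The ratios of Il15ra, Il15 and Il7 to Ptprc were lower in each KO library than in any WT library, by differences of -1.83, -2.51 and -2.76 (exact permutation p = 0.1 for each), as were the ratios of 72.3% of all tested genes. Ptprc itself rose, and the median difference over all these genes was -1.98, so that a lower ratio to Ptprc is not a result about these 3 genes. After adjustment over the 14 ratios the p-values of these 4 non-overlapping ratios were 0.233.

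**Figure D3:**
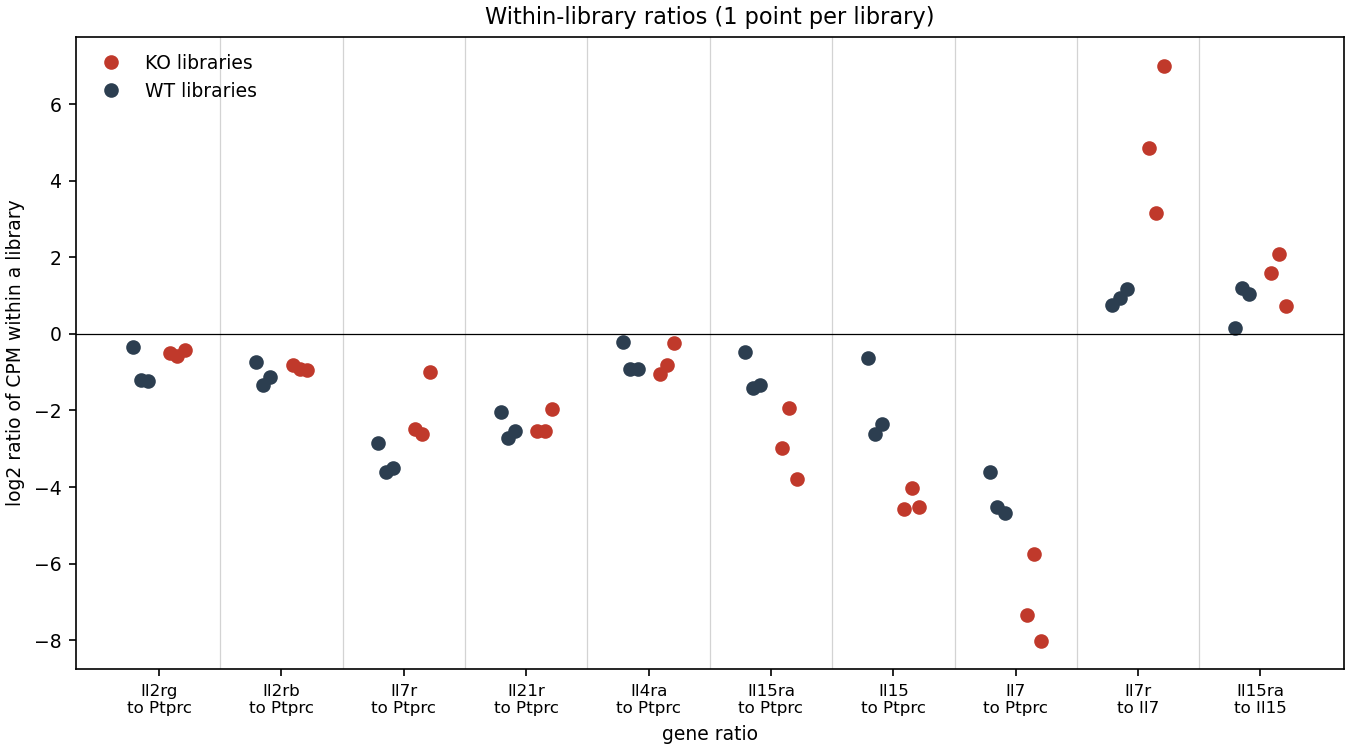
Log2 ratio of CPM within each library, 1 point per library, for each of the 8 genes over Ptprc and for 2 receptor and ligand pairs. KO and WT points overlap for Il2rg, Il2rb, Il21r and Il4ra over Ptprc, and the KO points lie below the WT points for Il15ra, Il15 and Il7, as for 72.3% of all tested genes.

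The other genes of the pathway were read from 3 lists. Of 11 other cytokines and receptor chains 6 were tested, and 2 rose, 0 fell and 4 did not pass. Il2ra, which completes the high-affinity IL-2 receptor, was at 26.3, 14.2 and 14.8 CPM in KO and at 3.74, 3.59 and 2.38 CPM in WT (log2 fold change 2.51, SE 0.40, adjusted p = 0.0246, edgeR). Crlf2, the receptor chain for the epithelial cytokine TSLP that pairs with Il7r, was at 127, 46.9 and 141 CPM in KO and at 27.3, 20.3 and 15.4 CPM in WT (log2 fold change 2.32, SE 0.46, adjusted p = 0.0254, edgeR). Il13ra1, which joins Il4ra in the other receptor for IL-4 and IL-13, did not pass (0.46, SE 0.25, adjusted p = 0.224), nor did Il4 (1.02, SE 0.58, adjusted p = 0.247) or Il9r (2.71, SE 0.90, adjusted p = 0.0913). Il2, Il9, Il13, Il13ra2 and Tslp were below the filter, and Il9 had 0 counts in each library.

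Of 12 signal transduction genes 4 rose, 0 fell and 8 did not pass. Jak3, the kinase that binds the common gamma chain, was at 171, 67.0 and 132 CPM in KO and at 23.6, 27.2 and 22.9 CPM in WT (log2 fold change 2.33, SE 0.37, adjusted p = 0.0246, edgeR). Gab2 and Pik3r1, an adaptor and a PI3-kinase regulatory subunit, also rose, by log2 fold changes of 1.51 (SE 0.40, adjusted p = 0.0490, edgeR) and 1.41 (SE 0.34, adjusted p = 0.0380, edgeR). Stat6, the factor downstream of Il4ra, rose by a log2 fold change of 1.17 (SE 0.30, adjusted p = 0.0468, edgeR). Stat3 (0.04, SE 0.26), Grb2 (1.15, SE 0.39) and Jak1 (1.15, SE 0.32), the partner kinase of JAK3, did not pass (adjusted p = 0.923, 0.0956 and 0.0554, edgeR). Stat5a and Stat5b, named here after their values were seen, had log2 fold changes of 0.72 and 0.71 and did not pass (adjusted p = 0.138 and 0.125, edgeR). The count of 4 was 1 without composition scaling, with limma-voom and without KO replicate 3, 8 without KO replicate 2, and 0 in the 4 fits named above that called no gene.

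Of 9 feedback and target genes 3 rose, 0 fell and 6 did not pass. Cish, a STAT5-induced inhibitor of cytokine signalling, was at 45.4, 24.6 and 32.2 CPM in KO and at 12.1, 10.7 and 9.55 CPM in WT (log2 fold change 1.66, SE 0.32, adjusted p = 0.0249, edgeR). Socs2, another STAT5-induced inhibitor, and Pim1, a survival kinase, rose by log2 fold changes of 1.92 (SE 0.45, adjusted p = 0.0365, edgeR) and 2.26 (SE 0.43, adjusted p = 0.0246, edgeR). Mcl1 and Bcl2l1, survival proteins of the BCL-2 family, and Socs3 did not pass, with fitted values of 1.53, -0.33 and -0.41 (adjusted p = 0.0566, 0.537 and 0.338, edgeR). The median log2 fold change was 1.67, 0.93 and 0.91 in the 3 lists, beside -0.05 for all tested genes.

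**Figure D4:**
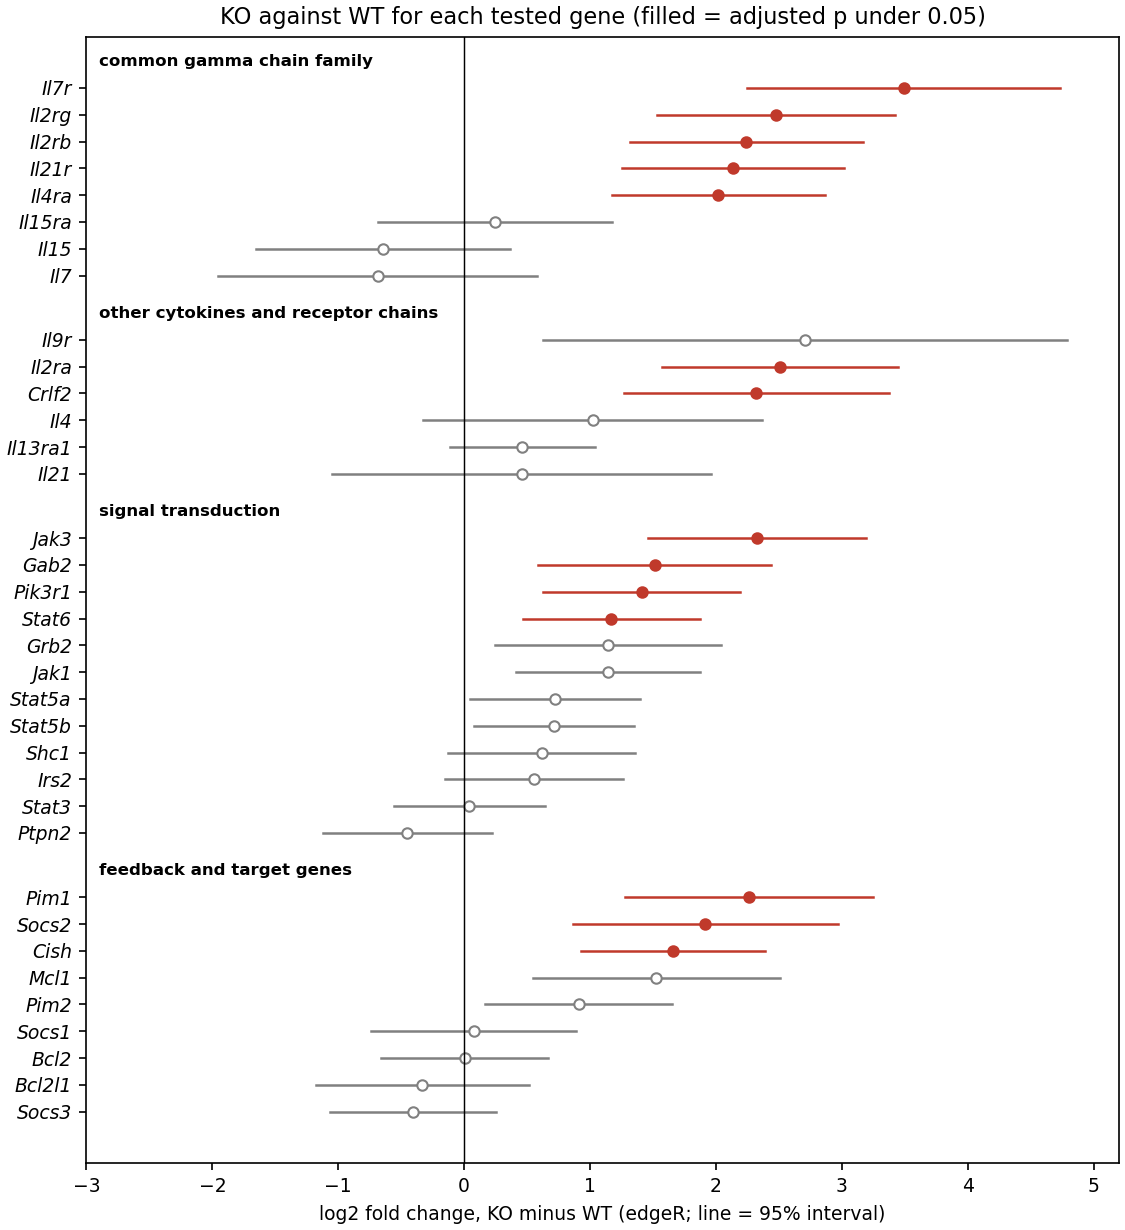
Log2 fold change, KO minus WT, of each tested gene of the family and of the 3 pathway lists, with its 95% interval; filled red points passed an adjusted p of 0.05. The 5 receptor chains, Il2ra, Crlf2, Jak3, Gab2, Pik3r1, Stat6, Pim1, Socs2 and Cish are filled, and the intervals of Il15ra, Il15 and Il7 cross 0.

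Markers of T cells, macrophages and leukocytes in general were mostly higher in the same libraries as the receptor chains, and those of other receptor-bearing cells were mixed. Of 15 T cell markers 13 rose and 0 fell, and their summed level was 946, 300 and 813 CPM in the KO libraries and 112 to 175 CPM in WT, with Cd8a, the CD8 coreceptor, at 106 ± 51.8 CPM (SD, n = 3) in KO tumours and 21.4 ± 2.97 in WT tumours. Of 7 NK cell markers 3 rose, and their sum was 57.3 to 129 CPM in KO and 18.7 to 36.1 CPM in WT. Of 6 pan-leukocyte markers 5 rose (sum 1000 to 3977 CPM in KO, 371 to 514 CPM in WT), and of 10 macrophage markers 8 rose (sum 2517 to 8349 CPM in KO, 1032 to 1750 CPM in WT). None of the genes of these 4 lists was at 0 in any library. Of 6 tested B cell markers 2 rose, 0 fell and 4 did not pass, and the sum over the list was 26.2, 16.8 and 35.5 CPM in KO against 15.5 to 20.7 CPM in WT, so that KO replicate 2 lay within the WT range. Cr2, a complement receptor of B cells (log2 fold change -2.08, adjusted p = 0.0967, edgeR; named after its values were seen), had all KO libraries below the WT libraries. Of 5 markers of group 2 innate lymphoid cells 3 rose, 0 fell and 2 did not pass. Their sum was 41.0 to 70.7 CPM in KO and 15.4 to 20.1 CPM in WT. Areg, the growth factor amphiregulin (log2 fold change -1.84, adjusted p = 0.154, edgeR; also named after its values were seen), had all KO libraries below the WT libraries. Il2rb, Il2rg and Il21r, like the T cell sum, were highest in KO replicate 1, then KO replicate 3, then KO replicate 2. The NK cell and group 2 innate lymphoid sums, and the dendritic cell and fibroblast sums given below, had the same order. It was thus not particular to the T cell markers. Il7r and the pan-leukocyte sum were highest in KO replicate 3. So were Il4ra, the macrophage sum, and the endothelial and skeletal muscle sums given below. The part of cell composition in the rise of the receptor chains was not tested.

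Markers of cells that can make IL-7 or IL-15 were also read. Of 7 fibroblast markers 6 rose, with sums of 9323 to 27686 CPM in KO and 1635 to 2617 CPM in WT. Of 6 endothelial markers 5 rose (287 to 908 CPM in KO, 59.7 to 90.3 CPM in WT), and of 6 skeletal muscle markers 5 rose (315 to 2037 CPM in KO, 87.3 to 199 CPM in WT). Lymphatic endothelial markers differed: 2 of 4 rose, 0 fell and 2 did not pass. Their sum was lower in each KO library (67.0, 128 and 23.5 CPM) than in WT (173 to 238 CPM). Of 7 dendritic cell markers 3 rose, 0 fell and 4 did not pass. Their sums were 105, 33.5 and 103 CPM in KO and 16.3 to 36.2 CPM in WT, so KO replicate 2 lay within the WT range. Of 4 lymphoid stroma markers 1 was tested and rose, and of 6 keratinocyte markers 2 were tested and 0 rose. Il7 and Il15 did not rise with the fibroblast, endothelial and skeletal muscle sums, nor with the macrophage sum given above. In KO replicate 3 the muscle sum was 15.9 times and the endothelial sum 12.2 times the WT mean. There Il15 was at 0.531 times and Il7 at 0.258 times. In KO replicate 1, with the fibroblast sum at 12.9 times the WT mean, Il15 was at 0.884 times and Il7 at 0.734 times. In KO replicate 2 Il15 was at 0.505 times and Il7 at 0.861 times. The neural and glioma sum was at 0.0836, 0.691 and 0.0588 times the WT mean in KO replicates 1, 2 and 3. Which cells carried the Il7 and Il15 reads was not tested.

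**Figure D5:**
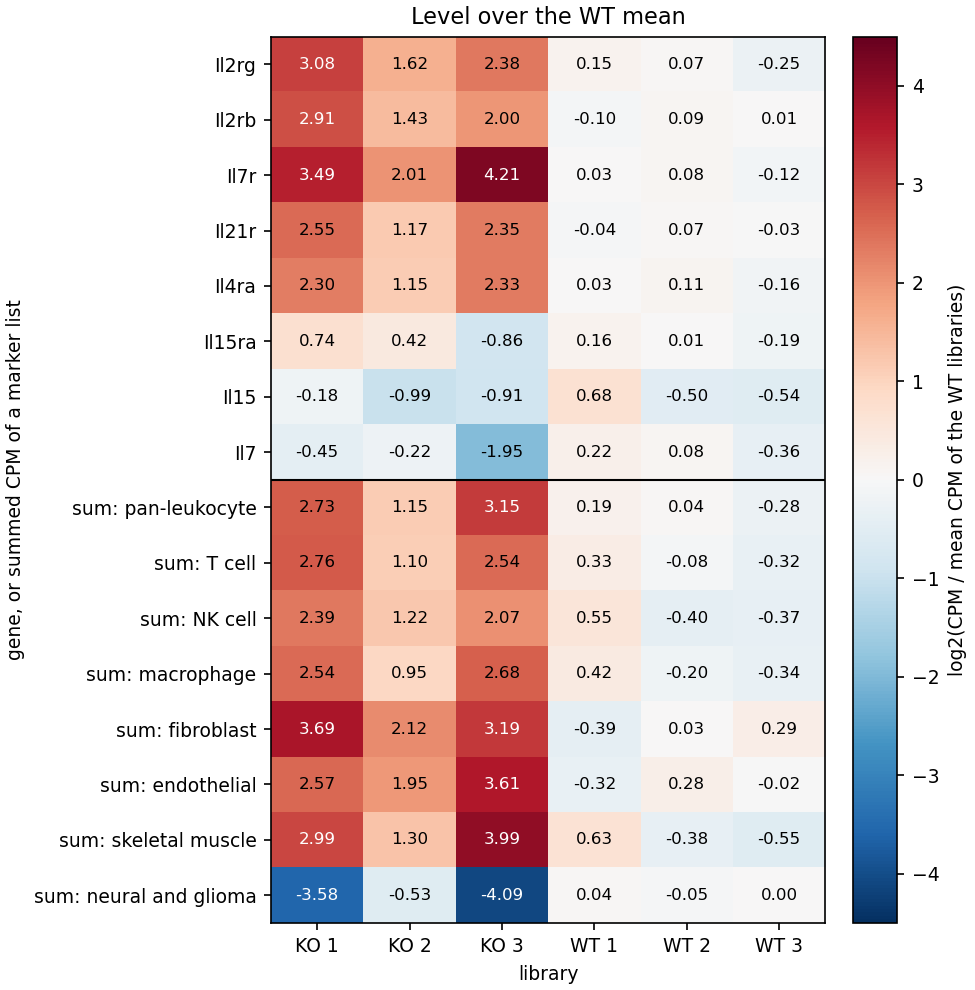
Heat map of the log2 ratio of each library to the mean of the WT libraries, for the 8 genes (above the line) and for summed marker lists (below it). KO replicate 2 has the smallest rise in the KO group for Il2rg (1.62), Il2rb (1.43), Il7r (2.01), Il21r (1.17) and Il4ra (1.15), and KO replicates 1 and 3 have the lowest neural and glioma sums (-3.58 and -4.09).

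Among 12640 other tested genes, the closest patterns over the 6 libraries were found by Pearson's r of log2 CPM. This r is given as a measure of likeness with no test. These genes had a mean log2 CPM of at least 1. Predicted models, with symbols of Gm, AC or BC and a number or ending in Rik, were left out. The 6 points of each correlation share the split into KO and WT libraries and the differences among the KO libraries. The genes nearest to Il2rb were Tifab and Rasal3 (both at 0.999), and those nearest to Il2rg were Zfp810 (0.999) and Cish (0.998), the latter also in the target list above. Il7r was nearest to Vwf, the endothelial von Willebrand factor, and Gpr137b (both 0.999), Il21r to Fam169b and Myo1g (1.00 and 0.999), and Il4ra to Cdkn1c and Lcmt2 (both at 1.00). Il15ra was nearest to Daxx (0.997) and Cxcl9 (0.994), an interferon-induced chemokine that was at 544, 344 and 22.4 CPM in the KO libraries and at 209, 156 and 114 CPM in WT. Like Il15ra, Cxcl9 was above the WT libraries in KO replicates 1 and 2 and below them in KO replicate 3. Il15 was nearest to Mad2l2 (0.987) and Usp30 (0.978), and Il7 to Ccdc84 (0.996) and Coq6 (0.995), none of which passed the test.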

How the data were processed

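The authors deposited raw read counts per gene symbol for 6 Smart-seq2 libraries, per the file headers in the layout of featureCounts; Smart-seq2 does not mark strand. The submitters' processing notes list mm10 and DESeq2. No aligner, annotation release or rule for multi-mapped reads is given in these sources. Per the labels' protocols, 5000 to 20000 CT2A cells were sampled per library. The labels name no sort. Groups follow the genotype label, and replicate numbers only name libraries.

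KO was compared with WT in edgeR 4.0.16 (R 4.3.3; TMM, filterByExpr, group as the only term, two-sided), over 18621 genes with 99.9% of counts, at an adjusted p of 0.05 (Benjamini-Hochberg). The SE is the absolute log2 fold change over the square root of F, and 95% intervals use its degrees of freedom. Ratios used log2 CPM with a prior count of 2. The alternatives were RLE or no scaling, no or a stricter filter (1 CPM in 3 libraries), DESeq2 1.42.0, limma 3.58.1, robust fitting and leaving out each library; DESeq2 without each library was added after seeing the data. The fit was tested on simulated data, and the outcome is not given here.

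Gene lists came from textbook knowledge. The genes and lists were chosen with earlier results of these data known. Named beside the 8 genes are, per pathway list, up to 6 called genes by p and up to 3 others by level, up to 2 markers per list by level, and the 2 nearest genes of each. Precision: 3 counts equal 0.0820 to 0.150 CPM. Reads carried no molecular identifiers. No 2 libraries agreed within sampling noise. Gene positions are from GENCODE M21, promoter letters from RefSeq (GRCm38.p6).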

Additional observations from a re-analysis of the deposited data

How the results depend on the processing

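The 5 receptor chains were called higher, and the other 3 genes not called, under each of the 8 alternatives that kept all libraries. The count of 5 ran from 0 to 5 when 1 library was left out. Over all tested genes, 2083 were higher and 42 lower; leaving out 1 library gave 0 to 4449 and 0 to 3629 with edgeR, and up to 4709 and from 86 to 4642 with DESeq2 (in detail 86 and 327 lower without KO 1 and KO 3, and 278, 260 and 211 without WT 1, 2 and 3). DESeq2 with all libraries gave 3266 higher and 1244 lower, limma-voom 988 higher, quality weights 5531 and 4749, no composition scaling 24 lower and no filter 476 lower. Without composition scaling the median of all genes moved from -0.05 to -0.18. Of the other cytokines and receptor chains 2 were higher, 4 with no filter (more genes were tested) and 4 with quality weights; leaving out 1 library gave 0 to 3 with edgeR and up to 4 with DESeq2. Of the signal transduction genes 4 were higher, 2 with RLE, 1 with no composition scaling or limma-voom, 9 with quality weights, and 0 to 8 with 1 library left out (1 to 8 with DESeq2). Of the feedback and target genes 3 were higher, 5 with quality weights and 0 to 5 with 1 library left out. Il15 turned to 0.11 with quality weights, and Il15ra to -0.12 (edgeR) and -0.16 (DESeq2) without KO replicate 1 (up to 0.56 without KO replicate 3). Of the ratios to Ptprc, Il2rb turned to -0.24 and -0.70, and Il21r to -0.34 and -0.80, with the summed pan-leukocyte list and with Cd3e, and Il2rg to -0.45 with Cd3e. Il21r to Ptprc was -0.12 without KO replicate 3 and -0.07 without WT replicate 2 (at most 0.27, without WT replicate 1), and Il4ra to Ptprc was 0.16, 0.05 and 0.22 without KO 1, KO 2 and WT 1. The cause of these changes was not tested. No paired analysis was possible because no label links a KO library to a WT library. Depth limits Il7 most, at 18 counts in KO replicate 3.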
